A study of Mus musculus with 536 samples.

Results

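Cdkn1a is 1 of the 12393 genes measured here in mouse blood after total body irradiation, and it was read by 2 probe sets of the array. The probe set with the higher mean over all arrays (1424638_at, mean 8.97 on the log2 scale) stands for the gene, and the other one (1421679_a_at, mean 8.36) is given beside it. All values are log2 signals, so a difference of 1 is a 2-fold change of signal. Levels of different genes are not compared, because each probe set has its own brightness.

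The blood came from C57BL/6 mice, female and male and 10 to 12 weeks old, by terminal cardiac puncture into an RNA preservative, and its RNA was depleted of globin transcripts before labelling. Every irradiated mouse had received a single total body dose of gamma rays from a caesium source. The labels name the strain and no transgene or deletion. The series held 536 arrays of 534 mice, the remaining arrays being repeat scans. The dose-time set held 240 untreated mice in 48 groups of 5, for 0 cGy, the low doses of 100, 200 and 300 cGy and the high doses of 450, 600, 800 and 1050 cGy, bled 6, 24, 48, 72, 120 or 168 hr later. A second set, named here for sex and treatment, held 111 female and 115 male mice in 48 groups of 3 to 5, with granulocyte colony-stimulating factor (GCSF, which drives the production and release of neutrophils), bacterial lipopolysaccharide (LPS, which sets off an innate immune response) or no agent, at 0, 200, 300 and 600 cGy and 6 or 24 hr after exposure. In the small treatment set, 9 groups of 5 or 6 animals (50 in total) had the same 3 choices of agent at 0, 150 or 600 cGy and were bled at 6 hr. Finally, 18 mice without an agent made up the small 7 day set, 10 of them at 150 cGy and 168 hr, with 0 cGy mice at 6, 24 and 168 hr in groups of 2 to 3. Sex is labelled only in the sex and treatment set, and dose and timing of the agents are not given in the sources used here. Beyond a mouse number the labels do not say how mice were housed or bled together, so a p-value here rests on the spread between mice within groups. In the limma tests all groups of a set share 1 estimate of that spread for a gene, which is not the spread of the groups compared. For Cdkn1a in the dose-time set the SD within a group ran from 0.09 to 1.41.

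Cdkn1a encodes p21, a small protein that binds cyclin-dependent kinase complexes and the replication clamp PCNA and thereby holds cells out of the cell cycle. DNA breaks activate the kinase ATM and the tumour suppressor p53, which binds upstream of Cdkn1a and raises its transcription, so that the transcript is widely used as a readout of p53 activity. The gene is also switched on without p53, for example during the differentiation of myeloid cells and by inflammatory signals, and it is known as a responder to ionising radiation in blood.

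Cdkn1a lies on mouse chromosome 17 (GRCm38.p6, chr17:29090979-29100722, forward strand, 9744 bases, Entrez Gene 12575). RefSeq places transcript starts at 29090979 and at 29093769, 2790 bases apart. The 150 bases before each start are shown because they differ in what they hold. The capitals mark a 20-base element in the upstream window and, in the downstream window, 2 GC boxes (GGGCGG) and a TATAA box.
Upstream start, chr17:29090829-29090978, forward strand: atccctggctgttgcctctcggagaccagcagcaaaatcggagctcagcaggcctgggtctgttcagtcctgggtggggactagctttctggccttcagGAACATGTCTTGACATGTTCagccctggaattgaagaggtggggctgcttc
Downstream start, chr17:29093619-29093768, forward strand: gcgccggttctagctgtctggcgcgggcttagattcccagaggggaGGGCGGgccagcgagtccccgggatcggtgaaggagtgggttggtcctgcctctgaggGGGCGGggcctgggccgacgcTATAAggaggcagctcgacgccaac

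The capitals of the upstream window run from 29090928 to 29090947 and begin 51 bases before the start. They have the layout of a p53 response element, 2 copies of a 10-base motif with no spacer, of which the first matched the published p53 consensus at 10 of 10 letters and the second at 9 of 10. The upstream window held no TATAA and no GGGCGG on the forward strand. The TATAA of the downstream window begins 25 bases before its start. A search of RefSeq promoter windows (250 bases before to 50 after each start, both strands, a pattern that reads the same on either strand) for the core CATGNNNNNNCATG found it in 234 of 32851 windows (0.712%), and in 50 of the 12566 windows of genes on the array (0.398%). It was in none of the 35 windows of 26 other p53 target genes. With at most 1 mismatch to the p53 consensus over 20 bases, 29 windows matched (0.0883%), among them 1 of the 2 windows of Cdkn1a and 1 window of Ccng1, the gene of cyclin G1. A match is a description of the letters and not a measurement of binding.

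The samples carried the markers of blood. In the 0 cGy mice of the dose-time set, Cd79a of B cells had group means of 9.89 to 11.26, Cd3e of T cells of 9.31 to 9.69 and S100a8 of neutrophils of 11.93 to 12.87. Liver transcripts were present in many samples: Alb, the gene of serum albumin, was at 10 or more in 116 of 240 mice of the dose-time set, 61 of the sex and treatment set, 23 of 50 and 3 of 18 of the others, unirradiated mice included. At 120 and 168 hr this was so in all 20 mice at 450 cGy or more at each time, against 1 of 20 and 4 of 20 under 450 cGy. Some arrays had values unlike those of their own group or of the neighbouring doses, and whether their labels were right was not tested. The mouse labelled 10 of the 0 cGy group without agent in the small treatment set had Cdkn1a at 10.47, Phlda3 at 9.27, Ccng1 at 10.40 and Cd79a at 7.23, where the other 5 mice had Cdkn1a at 7.03 to 7.47, Phlda3 at 6.46 to 7.41, Ccng1 at 7.63 to 8.94 and Cd79a at 10.82 to 11.74. At 24 hr in the dose-time set, 4 of the 5 mice labelled 800 cGy had Cd79a at 9.30 to 10.14, and 2 mice at 1050 cGy had it at 10.15 and 10.99. The mice at 450 and 600 cGy had it at 7.24 to 8.87 and 6.92 to 8.72, those at 300, 200 and 100 cGy at 8.69 to 9.68, 8.29 to 9.89 and 9.82 to 10.40, and the 0 cGy mice at 10.69 to 10.98. So these 4 mice at 800 cGy were below every control and above every mouse of 450 and 600 cGy. Results of the small treatment set are also given without the mouse labelled 10, and the trends at 24 hr without those 6 arrays of high B cell marker, a choice made after seeing the data.

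Cdkn1a was low in every unirradiated mouse of the dose-time set, between 6.16 and 7.21 over 30 mice and 6 times. The group means at 0 cGy were 6.74, 6.89, 6.85, 6.72, 6.47 and 7.01 from 6 to 168 hr. The test of a difference between times did not pass for Cdkn1a (moderated F of 0.72, adjusted p = 0.671 by limma), and it passed for 50.3% of all genes. That call depended on the spread used and on the probe set, as given among the dependences on processing. Of the 210 irradiated mice, 208 stood above the highest 0 cGy mouse of their time.

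At 6 hr the transcript had risen at every dose, and the doses were close together. The 0 cGy mice were at 6.64, 6.66, 6.72, 6.82 and 6.83, and the 100 cGy mice at 7.89, 8.06, 8.44, 8.47 and 8.62. The mice at 1050 cGy were at 8.36, 8.56, 8.59, 8.70 and 9.99. All 35 irradiated mice were above all 5 controls, but the mice of 100 cGy overlapped with those of most higher doses. The means rose by 1.56 (SE 0.31, n = 5 in each group) at 100 cGy, a 2.95-fold change, and by between 1.83 and 2.32 at the doses from 200 to 1050 cGy. The rise at 100 cGy had an adjusted p of 7.33e-05 (limma), in a comparison in which 12.5% of genes were called higher. The slope over dose was 0.14 per 100 cGy (SE 0.02, adjusted p = 1.63e-07 by limma), and 16.2% of genes rose with dose at this time and 18.5% fell.

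At 24 hr the mice of a group spread more widely. The 0 cGy mice were at 6.67, 6.69, 6.84, 7.02 and 7.21, the 100 cGy mice at 8.01, 8.10, 8.24, 8.31 and 8.94, and the 300 cGy mice at 9.35, 9.41, 9.61, 10.10 and 10.32. The 600 cGy mice were at 7.24, 9.75, 10.01, 10.22 and 10.95, the 800 cGy mice at 7.50, 7.90, 8.16, 8.29 and 9.19, and the 1050 cGy mice at 7.50, 8.65, 9.56, 10.08 and 10.58. So the order of the doses was broken: the 800 cGy group, in which 4 of 5 mice had a B cell marker above that of every 450 and 600 cGy mouse, lay 1.43 below the 600 cGy group (exact permutation test, 5 against 5 mice, p adjusted over 42 pairs = 0.182). The low mouse at 600 cGy (Cd79a 8.72, Phlda3 7.93, Ccng1 8.03) and the low one at 1050 cGy (Cd79a 10.15, Phlda3 7.48, Ccng1 8.39) also had low values of 2 other p53 targets. In contrast, a mouse at 1050 cGy with Cdkn1a at 10.58 had Cd79a at 10.99. What part the handling or labelling of these samples had was not tested.

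The rise at 24 hr was 1.43 (SE 0.31) at 100 cGy, with an adjusted p of 3.44e-04 (limma) beside 5.60% of genes called higher, and 2.87 at 300 cGy, a 7.30-fold change. The slope was 0.10 per 100 cGy (SE 0.02, adjusted p = 1.51e-04 by limma), 0.16 without the 800 cGy mice, and 0.15 (SE 0.03, adjusted p = 4.36e-06 by limma) without the 6 arrays of high B cell marker. At this time 18.9% of genes rose with dose and 19.8% fell.

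At 48 hr the difference from 0 cGy was larger at every dose than at 6 hr by its point estimate, and so was the slope over dose. By the other probe set this did not hold for the difference at 100 cGy. The means were not in full order of dose: they were 9.82 and 9.76 at 200 and 300 cGy and 10.57 and 10.31 at 450 and 600 cGy. The 100 cGy mice were at 7.97, 8.55, 8.81, 8.93 and 9.09, the 450 cGy mice at 9.99, 10.47, 10.73, 10.78 and 10.86, and the 1050 cGy mice at 11.13, 11.16, 11.44, 11.55 and 11.80, against 6.62, 6.72, 6.85, 6.97 and 7.11 at 0 cGy. These 4 groups did not overlap, although only 2 of the 7 pairs of neighbouring doses passed an exact permutation test. The difference from 0 cGy was 1.82 (SE 0.31) at 100 cGy and 4.56 at 1050 cGy, a 23.6-fold change. The former had an adjusted p of 1.58e-06 (limma, 17.9% of genes called higher). The slope of 0.35 per 100 cGy (SE 0.02) had an adjusted p of 6.15e-32 (limma), where 24.0% of genes rose and 23.3% fell.

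At 72 hr the means ran in order of dose from 6.72 to 11.37. The 100 cGy mice were at 7.56, 8.16, 8.26, 8.50 and 8.73, the 300 cGy mice at 8.67, 9.11, 9.84, 9.87 and 10.48, and the 800 cGy mice at 11.06, 11.12, 11.27, 11.58 and 11.58. The 200 cGy group was the widest of these low doses, with 7.84, 8.23, 8.58, 9.16 and 10.48. The rise at 100 cGy was 1.52 (adjusted p = 6.73e-05 by limma, 9.47% of genes called higher) and that at 1050 cGy 4.65, a 25.1-fold change. The slope was 0.42 (SE 0.02, adjusted p = 2.05e-41 by limma), with 26.3% of genes rising and 27.1% falling.

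From 120 hr on, low and high doses went apart. At 120 hr the 100 cGy mice had come down to 6.76, 6.84, 7.17, 7.21 and 7.57, just above the controls at 6.16, 6.44, 6.50, 6.51 and 6.74, while the 1050 cGy mice stood at 11.65, 11.73, 11.76, 11.89 and 11.92. The 450 cGy mice lay between them at 9.07, 9.23, 9.32, 9.58 and 9.99. All 5 mice of 100 cGy were above all controls, but the difference of 0.64 (SE 0.31) had an adjusted p of 0.0555 (limma), beside 39.5% of genes called higher. The difference at 1050 cGy was 5.32, a 39.9-fold change and the highest of all 42 irradiated groups. The slope was 0.56 (SE 0.02, adjusted p = 8.06e-58 by limma), in a comparison in which 35.4% of genes rose and 47.0% fell.

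At 168 hr the 100 cGy mice overlapped with the controls. They were at 6.76, 7.04, 7.19, 7.58 and 7.73, against 6.78, 6.97, 7.03, 7.14 and 7.14 at 0 cGy, so that 2 of them were not above the highest control. The difference of 0.25 (SE 0.31) had an adjusted p of 0.565 (limma), with 5.00% of genes called higher. Mice at 450 cGy were at 8.33, 8.57, 8.68, 9.04 and 9.34, and those at 600 cGy at 10.49, 10.53, 10.997, 11.13 and 11.36. The 800 cGy mice reached 11.85, 12.01, 12.33, 12.44 and 12.44 and the 1050 cGy mice 11.78, 11.87, 12.06, 12.30 and 12.43, so these 2 groups overlapped in full. The differences from 0 cGy were 1.78, 3.89, 5.20 and 5.08 at the doses from 450 to 1050 cGy, or 3.44-fold, 14.9-fold, 36.9-fold and 33.8-fold. The slope was 0.58 (SE 0.02, adjusted p = 1.02e-60 by limma), with 35.5% of genes rising and 46.6% falling.

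**Figure D1:**
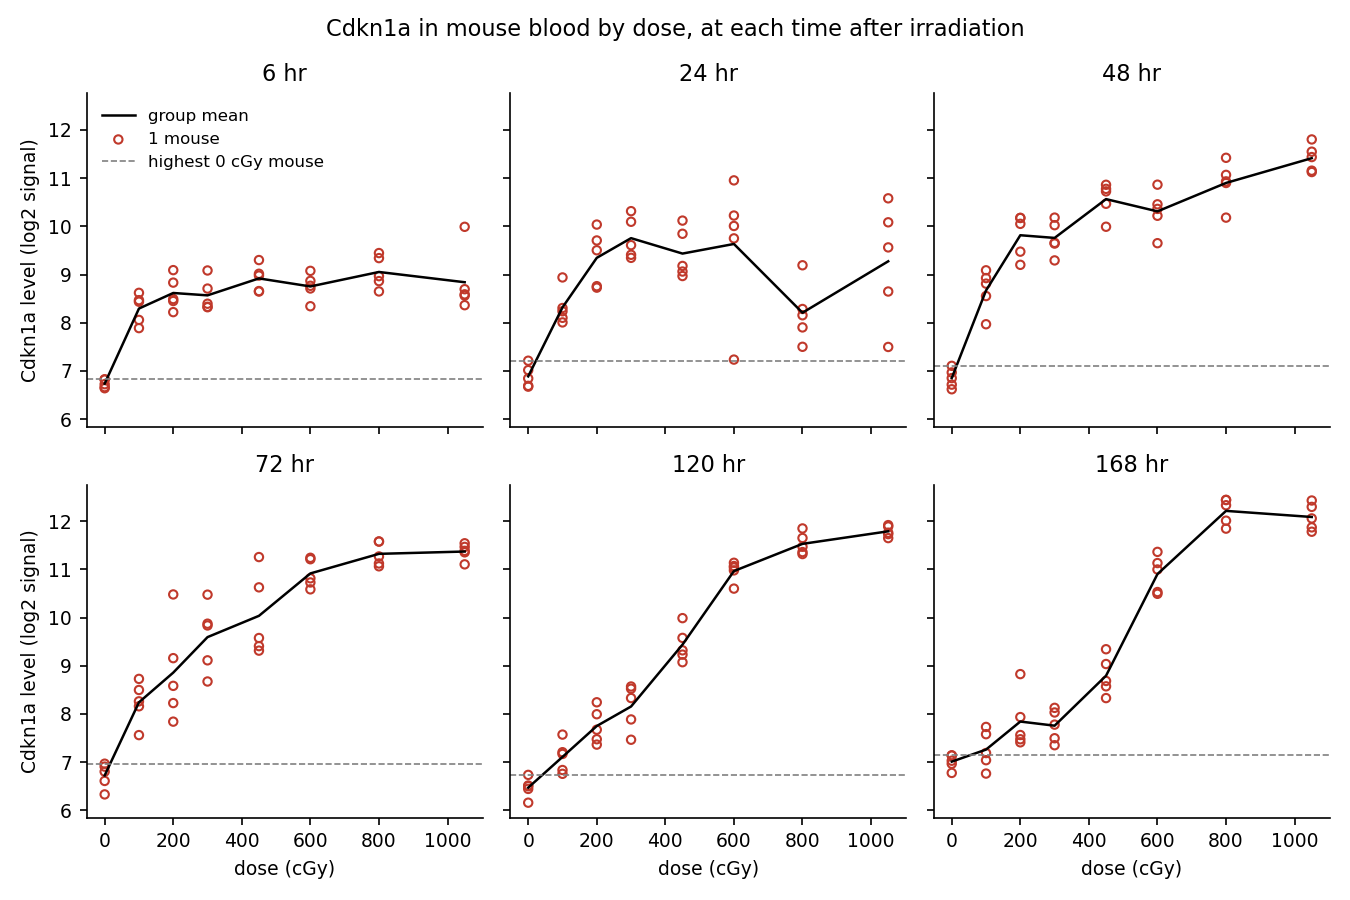
Cdkn1a (log2 signal) against dose (cGy) in the dose-time set, 1 panel per time. Each point is 1 mouse, the black line joins the group means (5 mice each) and the dashed line marks the highest 0 cGy mouse of the time. At 6 hr all irradiated groups lie between 7.89 and 9.99, whereas at 168 hr the points climb from 6.76 at 100 cGy to 12.44 at 800 cGy.

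Compared by dose, the transcript thus had different courses. At 100 cGy the difference from 0 cGy was 1.56, 1.43, 1.82, 1.52, 0.64 and 0.25 from 6 to 168 hr. At 300 cGy it was 1.83, 2.87, 2.91, 2.87, 1.68 and 0.75. At 450 cGy it was 2.18, 2.55, 3.71, 3.31, 2.97 and 1.78, at 600 cGy 2.02, 2.75, 3.46, 4.19, 4.49 and 3.89, at 800 cGy 2.32, 1.32, 4.05, 4.60, 5.06 and 5.20, and at 1050 cGy 2.11, 2.39, 4.56, 4.65, 5.32 and 5.08. By these point estimates the doses from 100 to 450 cGy were highest at 48 hr, 600 and 1050 cGy at 120 hr and 800 cGy at 168 hr. The other probe set had another course at low doses. Its 100 cGy means were 7.65 at 48 hr and 7.56 at 120 hr, over controls at 7.07 and 6.38, so its difference was larger at 120 hr. Its 300 cGy means were 8.67 at 24 hr and 8.82 at 48 hr, over controls at 6.54 and 7.07, so that difference was larger at 24 hr. The slope over dose differed between the 6 times (moderated F of 78.6, adjusted p = 5.49e-43 by limma), as did that of 92.3% of all genes. The sample titles of this set hold 5 codes, read here as array runs without a label that says so, each with 8 mice per time. Within each of these the slope was 0.09 to 0.21 at 6 hr, -0.02 to 0.18 at 24 hr, 0.33 to 0.36 at 48 hr, 0.36 to 0.48 at 72 hr, 0.54 to 0.58 at 120 hr and 0.55 to 0.64 at 168 hr.

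**Figure D2:**
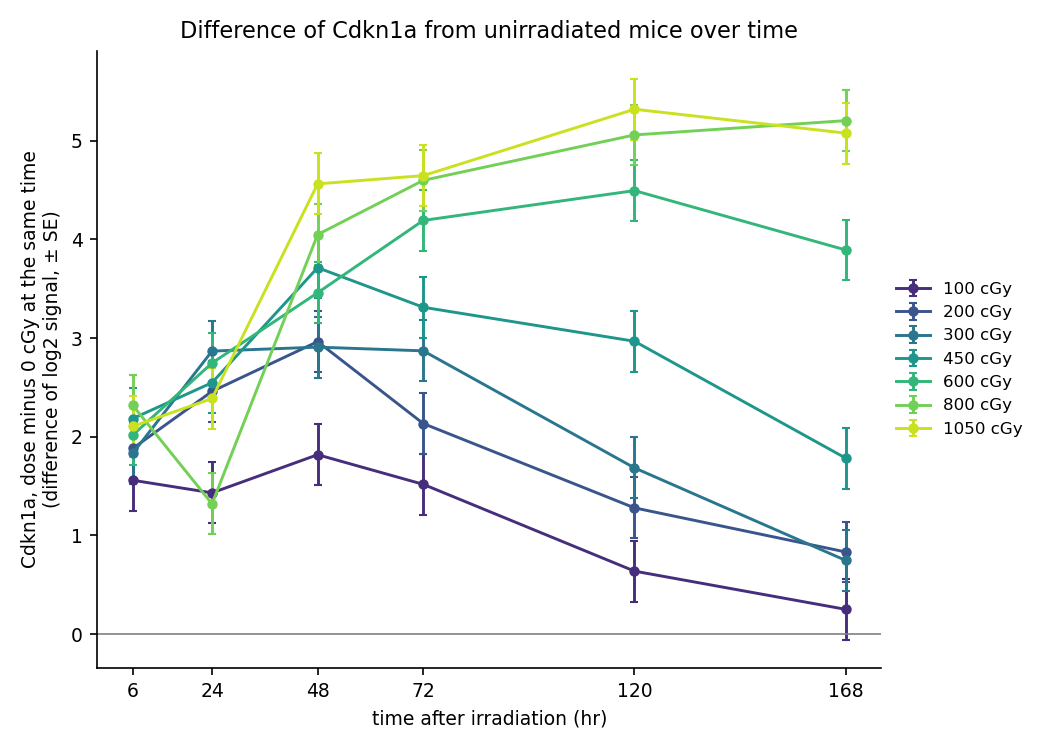
Difference of Cdkn1a from the 0 cGy mice of the same time (log2, y axis) against time after irradiation (hr, x axis), 1 line per dose, with bars of 1 SE (0.31, from the model of all 48 groups of 5 mice). Values are those of the probe set that stands for the gene, and the other one had another course at low doses. The line of 100 cGy comes down from 1.82 at 48 hr to 0.25 at 168 hr, and that of 800 cGy reaches 5.20.

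How finely dose was resolved was seen in the 42 pairs of neighbouring doses (exact permutation test, 5 against 5 mice, smallest possible p 0.0079). Of these, 12 pairs passed with adjusted p = 0.0278 over the pairs. The step from 0 to 100 cGy passed at 6, 24, 48, 72 and 120 hr. The step from 100 to 200 cGy passed at 48 hr. The steps from 300 to 450, 450 to 600 and 600 to 800 cGy passed at 120 and 168 hr, so that more neighbouring doses separated late (4 and 3 of 7 pairs) than at 6 and 24 hr (1 of 7 each). The step from 800 to 1050 cGy did not pass at 120 hr (0.26, adjusted p = 0.148, exact) or at 168 hr (-0.13, adjusted p = 0.528, exact). A p that missed the threshold does not show that the doses gave the same level.

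The other probe set followed the first over mice (Pearson r of 0.97 over 240 mice, 0.96 in the sex and treatment set, 0.98 over 50 and 0.79 over 18, as a description of probes that share every library). It ran over a smaller range in the dose-time set, from 6.04 to 11.34 against 6.16 to 12.44. With it 35, 32, 33, 32, 35 and 35 of the 35 irradiated mice per time were above the highest control, against 35 at all times but 168 hr, with 33, for the first. At 48 hr its 100 cGy mice (7.26 to 8.06) overlapped with its controls (6.74 to 7.35), and at 120 hr they did not (7.16 to 7.80 against 6.04 to 6.78). By this probe set the difference at 100 cGy did not pass at 48 hr (0.58, adjusted p = 0.0538 by limma) or at 72 hr (0.44, adjusted p = 0.242), and it did at 120 hr (1.18, adjusted p = 1.20e-05).

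Genes of the same pathway moved with dose in both directions. Of 40 other p53 targets listed, 34 were measured, and the rest, Bax and Gdf15 among them, were not analysed here. At 6 hr 22 rose with dose and 2 fell, beside 16.2% and 18.5% of all genes. The median slope was 0.04 per 100 cGy against 0.00 over all genes. Leading were Fas, a death receptor (slope 0.13, adjusted p = 7.05e-18 by limma), and Plk2, a polo-like kinase (0.09, 4.14e-14), while Sesn1, a stress-induced inhibitor of mTORC1 signalling, fell with dose (-0.14, 5.23e-12). At 24 hr 3 rose and 7 fell, beside 18.9% and 19.8% of all genes, so the risen share was below that of all genes. Without the 6 arrays of high B cell marker 9 rose and 6 fell, beside 28.2% and 24.5% of all genes. In the fit of all arrays Phlda3, an inhibitor of AKT, rose (0.11, 1.29e-10), and Ddb2, a sensor of damaged DNA, fell over dose (-0.12, 2.88e-11). Without the 6 arrays their slopes were 0.14 and -0.17. The counts of p53 targets at this time moved with the setting, from 2 to 9 risen.

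The counts at 48 and 72 hr were 18 risen with 5 fallen and 16 with 8, and at 120 and 168 hr 23 with 8 and 19 with 9. Of all genes 24.0%, 26.3%, 35.4% and 35.5% rose and 23.3%, 27.1%, 47.0% and 46.6% fell at these times. The median slopes from 48 to 168 hr were 0.05, 0.02, 0.06 and 0.05. Phlda3 had slopes of 0.18, 0.23, 0.24 and 0.28 over these times (adjusted p = 1.34e-24 by limma at 48 hr and 2.33e-46 at 168 hr), and its group means at 168 hr were 6.78 ± 0.23 (SD, n = 5) at 0 cGy and 9.41 ± 0.30 at 1050 cGy. Sesn2, a relative of Sesn1, led at 48 hr (0.17, 4.66e-26). Dcxr, a carbonyl reductase, had slopes of 0.33 and 0.41 at 120 and 168 hr.

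Not every target of p53 behaved in that way. Gadd45a, a damage-induced growth arrest gene, fell with dose at 120 hr (-0.30, adjusted p = 7.14e-33 by limma) and 168 hr (-0.46, 2.01e-55). Rrm2b, a subunit of ribonucleotide reductase, had slopes of -0.15, -0.14 and -0.21 at 48, 72 and 120 hr. Ccng1, a classical radiation responder, had a slope of 0.08 at 6 hr (adjusted p = 3.95e-05 by limma), 0.04 at 24 hr (0.0603, and 0.06 with 0.0137 without the 6 arrays of high B cell marker) and 0.02 at 48 hr (0.303), and 0.18 at 168 hr (1.46e-19). Its means at 6 hr were 8.06 ± 0.18 (SD, n = 5) at 0 cGy, 9.35 ± 0.50 at 100 cGy and 9.40 ± 0.58 at 1050 cGy, so its level, too, was similar over the irradiated doses at that time. Without the arrays of high Alb the risen p53 targets were 11 at 48 hr and 8 at 120 hr. At 48 hr this left out 26 of 40 mice. At 120 hr it left out all 20 mice at 450 cGy or more. The count of 8 is therefore over 0 cGy and the low doses alone, and is not comparable with the count over all doses. The shares of all genes that rose in these fits are not given here. What part the liver transcripts had in these counts was not tested.

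Among the genes that control p53, Mdm2, its ubiquitin ligase, had shallow slopes of 0.04, 0.00, 0.07, 0.05, 0.07 and 0.03 from 6 to 168 hr. The one at 24 hr did not pass (adjusted p = 0.776 by limma). Ppm1d, the phosphatase that switches the damage signal off, had slopes of 0.01, 0.00, 0.02, -0.03, -0.06 and -0.08. Mdm4, the partner of Mdm2, was called at 24 hr alone of the 6 times (-0.04, adjusted p = 0.00506). Trp53 itself was not analysed here. Of the 14 measured genes of damage signalling and p53 control, 0 rose and 6 fell at 6 hr, with 4 risen and 5 fallen at 168 hr. All genes had 16.2% risen and 18.5% fallen at the first of these times and 35.5% and 46.6% at the last, so neither count was above the share of all genes at 168 hr. Atr, the kinase of stalled replication, fell with dose at 6 and 24 hr (slopes of -0.09 and -0.10), and Nbn, a subunit of the break sensor complex, rose at 120 and 168 hr (0.11 and 0.13).

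The other CDK inhibitors each had a course of their own. Cdkn1b, the gene of p27, fell with dose at 120 hr (slope -0.19, adjusted p = 3.68e-24 by limma) and 168 hr (-0.27, 2.92e-37), where its mean was 9.38 ± 0.17 (SD, n = 5) at 0 cGy and 6.98 ± 0.32 at 1050 cGy. Cdkn2c, the gene of p18, fell with dose from 48 hr on (-0.14, -0.20, -0.21 and -0.23), although its mean at 168 hr was higher at 100 cGy (9.07 ± 0.23) than at 0 cGy (8.12 ± 0.18). Cdkn2d, the gene of p19, changed sign: it rose with dose at 6 hr (0.13, adjusted p = 2.88e-11 by limma) and 48 hr (0.14, 2.83e-13) and fell at 168 hr (-0.14, 2.29e-14). Cdkn2b, the gene of p15, had its highest slope at 72 hr (0.13, 4.88e-18), Cdkn2a at 168 hr (0.11, 4.04e-09), and Cdkn1c, the gene of p57, stayed between 0.00 and 0.03. Of these 6 genes, 1, 2, 3, 3, 0 and 2 rose and 1, 0, 1, 2, 3 and 3 fell from 6 to 168 hr, beside all-gene shares that went from 16.2% and 18.5% at 6 hr to 35.5% and 46.6% at 168 hr.

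**Figure D3:**
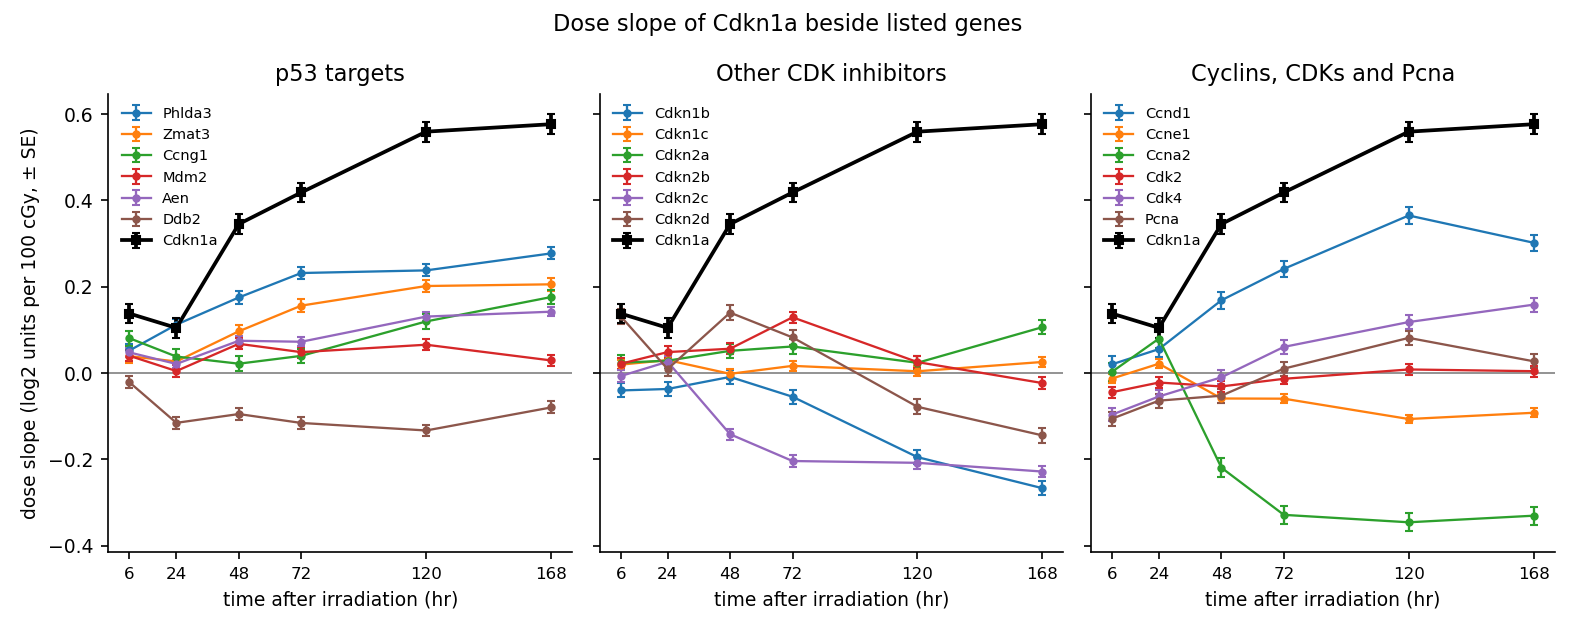
Slope of the log2 signal per 100 cGy (y axis, bars of 1 SE from limma) against time (hr, x axis) for Cdkn1a in black and for other p53 targets, other CDK inhibitors, and cyclins, CDKs and Pcna in 3 panels. Cdkn1a rises from 0.14 at 6 hr to 0.58 at 168 hr, Phlda3 from its 0.11 at 24 hr to 0.28, and Cdkn1b and Cdkn2c end at -0.27 and -0.23.

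Of the 12 measured cyclins, CDKs and Pcna, the partners of p21, 1, 4, 4, 5, 6 and 5 rose and 3, 2, 7, 4, 4 and 4 fell from 6 to 168 hr. From 6 to 168 hr 16.2%, 18.9%, 24.0%, 26.3%, 35.4% and 35.5% of all genes rose. Over the same times 18.5%, 19.8%, 23.3%, 27.1%, 47.0% and 46.6% fell. Ccnd1, the gene of cyclin D1, rose with dose at 48, 72, 120 and 168 hr (slopes of 0.17, 0.24, 0.37 and 0.30), but not at 6 hr (0.02, adjusted p = 0.422 by limma). Ccna2, the cyclin of S phase, fell at the same 4 times (-0.22, -0.33, -0.35 and -0.33). Cdk2, the kinase on which p21 acts at the entry into S phase, had slopes between -0.04 and 0.01, Cdk4 ran from -0.10 at 6 hr to 0.16 at 168 hr, and Ccne1 had slopes of -0.06, -0.06, -0.11 and -0.09 from 48 hr on. Pcna, which p21 also binds, fell at 6 hr (-0.11, adjusted p = 1.22e-08), from 9.75 ± 0.23 (SD, n = 5) at 0 cGy to 8.19 ± 0.39 at 1050 cGy.

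Genes downstream of p21, those of RB and of the E2F factors with their targets in replication and mitosis, fell in most cases from 48 hr on. Of 27 measured, 15, 17, 18 and 20 fell and 1, 2, 3 and 3 rose at 48, 72, 120 and 168 hr, whereas the counts were 3 fallen with 2 risen at 6 hr and 5 fallen with 8 risen at 24 hr. Of all genes 23.3%, 27.1%, 47.0% and 46.6% fell at the 4 late times, and 24.0%, 26.3%, 35.4% and 35.5% rose. At 6 and 24 hr 18.5% and 19.8% fell, and 16.2% and 18.9% rose. Nusap1, a spindle protein, had slopes of -0.48, -0.60, -0.70 and -0.69 over the 4 late times, and Ube2c, a ubiquitin-conjugating enzyme of mitosis, of -0.58, -0.66 and -0.66 over the last 3. Rb1, the gene of the RB protein, fell as well (-0.20 at 48 hr, -0.32 at 120 hr and -0.38 at 168 hr). The erythroid markers, which in blood come from young red cells, fell at the same times, 4 of 5 at 48 hr and 5 of 5 later, and their part in these falls was not tested. In bulk RNA, fewer cells of a type and less RNA per cell cannot be told apart, here and in all that follows.

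Among 17 measured regulators that act on Cdkn1a besides p53, 6 rose and 2 fell at 6 hr, with 9 risen and 6 fallen at 168 hr, where all genes had 16.2% and 18.5% at the former and 35.5% and 46.6% at the latter. Cebpb, a factor of myeloid cells and inflammation, rose with dose at 6, 48, 72, 120 and 168 hr (0.16, 0.18, 0.21, 0.28 and 0.26). Stat3, which transmits cytokine signals, had slopes of 0.09, 0.18, 0.15, 0.14 and 0.13 at these times. Cebpa, a factor of granulocyte and monocyte differentiation that binds p21, rose at 72, 120 and 168 hr (0.20, 0.29 and 0.29). Foxo1 fell at 6, 24, 48 and 72 hr (-0.08, -0.08, -0.13 and -0.14). Egr1, an immediate early factor, had a slope of 0.29 at 120 hr.

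The cell makeup of the blood moved with dose at the same time as Cdkn1a. The mean of the 5 measured B cell markers at 6 hr was 9.45 to 9.86 in the 0 cGy mice and 5.88 to 6.60 at 1050 cGy. Of the 5, 4 fell with dose at 6 hr, beside 18.5% of all genes. The mean of the 6 neutrophil markers went from 8.83 to 9.50 at 0 cGy up to 11.10 to 11.79 at 1050 cGy at 6 hr. At 168 hr this mean went from 8.92 to 9.74 down to 6.11 to 7.76. All 6 rose with dose at 6 hr, beside 16.2% of all genes. At 168 hr 4 fell and 1 rose, beside 46.6% and 35.5% of all genes. At 168 hr the 6 markers of tissue macrophages, cells that are not normally in blood, had a mean of 7.26 to 8.85 at 0 cGy, 6.00 to 8.31 at 300 cGy, 9.75 to 10.87 at 600 cGy and 10.80 to 11.46 at 1050 cGy. All 6 rose with dose at 48, 72, 120 and 168 hr, beside 24.0%, 26.3%, 35.4% and 35.5% of all genes. The 6 hepatocyte markers rose at 120 and 168 hr and 0 of 6 at the earlier times, and at 168 hr their mean was 5.05 to 6.27 at 0 cGy and 12.72 to 14.33 at 1050 cGy. The mean of the 6 endothelial markers lay between 5.16 and 6.34 over all mice of the set, and that of the 6 cardiomyocyte markers between 3.71 and 6.75. Single markers did move: at 168 hr 3 endothelial markers rose with dose and 2 fell. Of the cardiomyocyte markers 2 rose and 1 fell at that time, beside 35.5% and 46.6% of all genes. The part of these cells in the level of Cdkn1a was not tested as a cause.

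Cdkn1a was also read beside the liver transcripts. Among the 0 cGy mice at 24 to 72 hr, 8 with Alb at 10 or more had Cdkn1a at 6.61 to 7.11 (median 6.85), and 7 with less Alb had it at 6.33 to 7.21 (median 6.72). Without the arrays of high Alb the slope was 0.13, 0.16, 0.35 and 0.44 at 6, 24, 48 and 72 hr. At 24 hr this left out all 5 mice at 300 cGy and 4 of 5 at 450 and at 600 cGy. With Alb as a covariate it was 0.14, 0.10, 0.34, 0.41, 0.50 and 0.53 over the 6 times. The covariate rests on the spread of Alb within groups, so it cannot adjust for a gap of Alb between low and high doses, as at 120 and 168 hr. At 120 and 168 hr leaving those arrays out removed every mouse at 450 cGy or more, and the slope over the doses from 0 to 300 cGy was 0.56 and 0.24, so that high dose and high Alb cannot be told apart there.

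**Figure D4:**
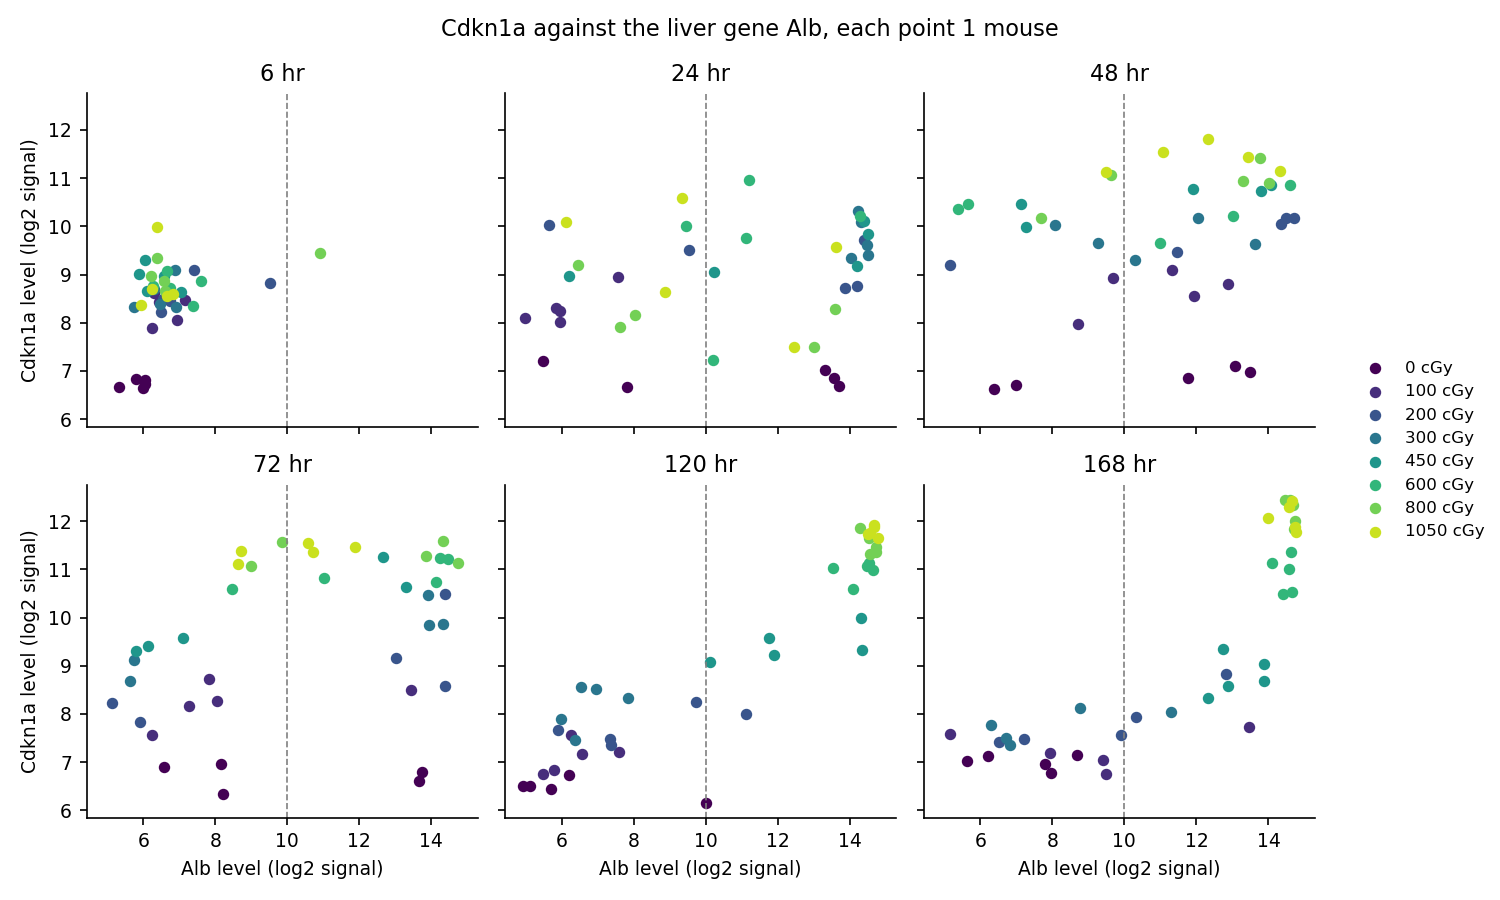
Cdkn1a (log2, y axis) against Alb (log2, x axis) for each mouse of the dose-time set, 1 panel per time and 1 colour per dose, with a dashed line at an Alb of 10. At 24 to 72 hr both sides of the line hold mice of low and high dose, and at 120 and 168 hr all 20 mice at 450 cGy or more lie to its right.

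The genes with the pattern most like Cdkn1a were found by Pearson correlation over the 48 group means of the dose-time set. The points share their libraries and 0 cGy groups, so r is a description. Highest were Egln3 (0.95), an oxygen-sensing prolyl hydroxylase, Cd14 (0.95), the LPS co-receptor of monocytes, Nfil3 (0.95), a bZIP repressor, Marco (0.95), a scavenger receptor of macrophages, and Il18bp (0.95), a soluble inhibitor of interleukin 18. Slpi, a protease inhibitor, St3gal4, Tmem159, Dab2ip and Rab32 each had 0.94. Over the 48 group means of the sex and treatment set the r of these 10 genes was lower, between 0.35 (Rab32) and 0.74 (Dab2ip). The lowest were Slc7a6 (-0.95), Itga4 (-0.93), an integrin of lymphocytes, Tdrp (-0.93), Trim59 (-0.92) and Ms4a4c (-0.92). Of 12392 other genes 58 had an r above 0.9, 454 had one above 0.8, and the median was -0.16. Without the 6 arrays of high B cell marker at 24 hr, the 10 most alike genes remained the same 10 (r of 0.94 to 0.95). Of the listed p53 targets, Dcxr (0.93), Phlda3 (0.91) and Zmat3 (0.90) came nearest. Over the group means of the sex and treatment set, the 4 genes most like Cdkn1a were p53 targets: Psrc1, a microtubule-associated protein (0.91), Phlda3 (0.81), Ccng1 (0.80) and Bbc3, the gene of the death-promoting protein PUMA (0.79), ranked 1 to 4 among all 12392, although Psrc1 had an r of 0.48 in the dose-time set. Other listed p53 targets went the other way there, among them Sesn1 (-0.62), Ddb2 (-0.50) and Rrm2b (-0.37). In the dose-time set Rrm2b (-0.83) and Gadd45a (-0.79) did so. These genes were named after their values were seen. The core CATGNNNNNNCATG was in none of the 11 promoter windows found for 8 of the 10 most alike genes.

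In the sex and treatment set the mice without an agent had risen levels as well, at 3 doses and 2 times, with both sexes pooled. At 6 hr Cdkn1a was at 6.72 (lowest), 7.06 (median) and 7.50 (highest) in 10 mice at 0 cGy. It was at 8.73, 9.46 and 10.19 in 10 mice at 200 cGy, at 8.43, 9.03 and 10.14 in 10 mice at 300 cGy, and at 8.86, 9.65 and 11.14 in 10 mice at 600 cGy. All 30 irradiated mice were above all 0 cGy mice of their sex, and the irradiated groups overlapped. At 24 hr the 0 cGy mice were at 6.38, 6.71 and 7.12, and the 600 cGy mice at 8.51, 9.36 and 10.53, with 28 of 28 irradiated mice above the controls of their sex. The differences from 0 cGy at 200, 300 and 600 cGy were 2.41, 2.03 and 2.72 at 6 hr and 2.04, 2.34 and 2.73 at 24 hr. In the dose-time set the same doses had 1.88, 1.83 and 2.02 at 6 hr and 2.46, 2.87 and 2.75 at 24 hr, given side by side because the sets are separate. The slopes were 0.40 and 0.42 per 100 cGy at 6 and 24 hr (SE 0.03, adjusted p = 9.52e-23 and 9.68e-25 by limma), where 7.55% and 18.3% of genes rose.

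No difference of Cdkn1a between GCSF and no agent passed the test, and the rise with dose was seen under GCSF as well. At 0 cGy the 10 mice under GCSF were at 6.47 (lowest), 6.98 (median) and 7.75 (highest) at 6 hr, and at 6.40, 6.78 and 7.63 at 24 hr, which overlaps with the mice without agent. The difference was -0.06 (SE 0.20, adjusted p = 0.999 by limma) at 6 hr and 0.15 (SE 0.20, 0.655) at 24 hr. At 6 hr 0.00% of genes were called by limma in this comparison (283 genes, 2.28%, at an unadjusted p under 0.05), and 0.549% at 24 hr. All 29 and all 26 irradiated mice under GCSF were above the 0 cGy mice of their sex and agent. The slopes were 0.34 and 0.36 (adjusted p = 5.61e-17 and 1.12e-18 by limma, 28.7% and 13.2% of genes rising). They differed from the slopes without agent by -0.06 and -0.07 (SE 0.05, adjusted p = 0.769 and 0.95 by limma, 0.0161% and 0.00807% of genes called). This does not show that the slopes were equal.

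LPS raised Cdkn1a without radiation, and the step to the irradiated mice was smaller under it. At 0 cGy the 8 mice under LPS at 6 hr were at 7.39 (lowest), 8.05 (median) and 8.41 (highest), and the 9 at 24 hr at 7.78, 8.80 and 9.57. At 24 hr they did not overlap with the 10 mice without agent, whose highest was 7.12. The difference from no agent was 0.99 (SE 0.22, 1.98-fold, adjusted p = 1.28e-04 by limma) at 6 hr and 2.09 (SE 0.21, 4.27-fold, 3.71e-17) at 24 hr, where 35.2% and 21.9% of genes were called in either direction.

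After irradiation the mice under LPS lay within the range of the irradiated mice without agent or close to it. At 600 cGy they were at 8.56, 8.93 and 10.60 (lowest, median and highest of 10 mice) at 6 hr and at 8.70, 9.37 and 10.63 at 24 hr. The differences from the 0 cGy mice under LPS were 1.07, 0.76 and 1.15 at 200, 300 and 600 cGy for the early time, and 0.35, 0.60 and 0.71 for 24 hr. At 6 hr all 29 irradiated mice were still above the 0 cGy mice of their sex and agent, and at 24 hr 10 of 27 were. Of those, 3 of 14 were female and 7 of 13 male, a split that was not tested.

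The slopes under LPS were 0.17 at 6 hr and 0.12 at 24 hr (SE 0.03, adjusted p = 9.45e-05 and 0.00812 by limma, 16.4% and 3.25% of genes rising). They were lower than those without agent by -0.24 (SE 0.05, adjusted p = 2.35e-04 by limma, 6.45% of genes called) at 6 hr and by -0.31 (SE 0.05, 1.20e-07, 16.5% of genes called) at 24 hr. The slope at 24 hr under LPS was 0.09 without the arrays of high Alb and no longer passed (adjusted p = 0.0664 by limma). Without the second mouse of every group it was 0.08 (adjusted p = 0.123).

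**Figure D5:**
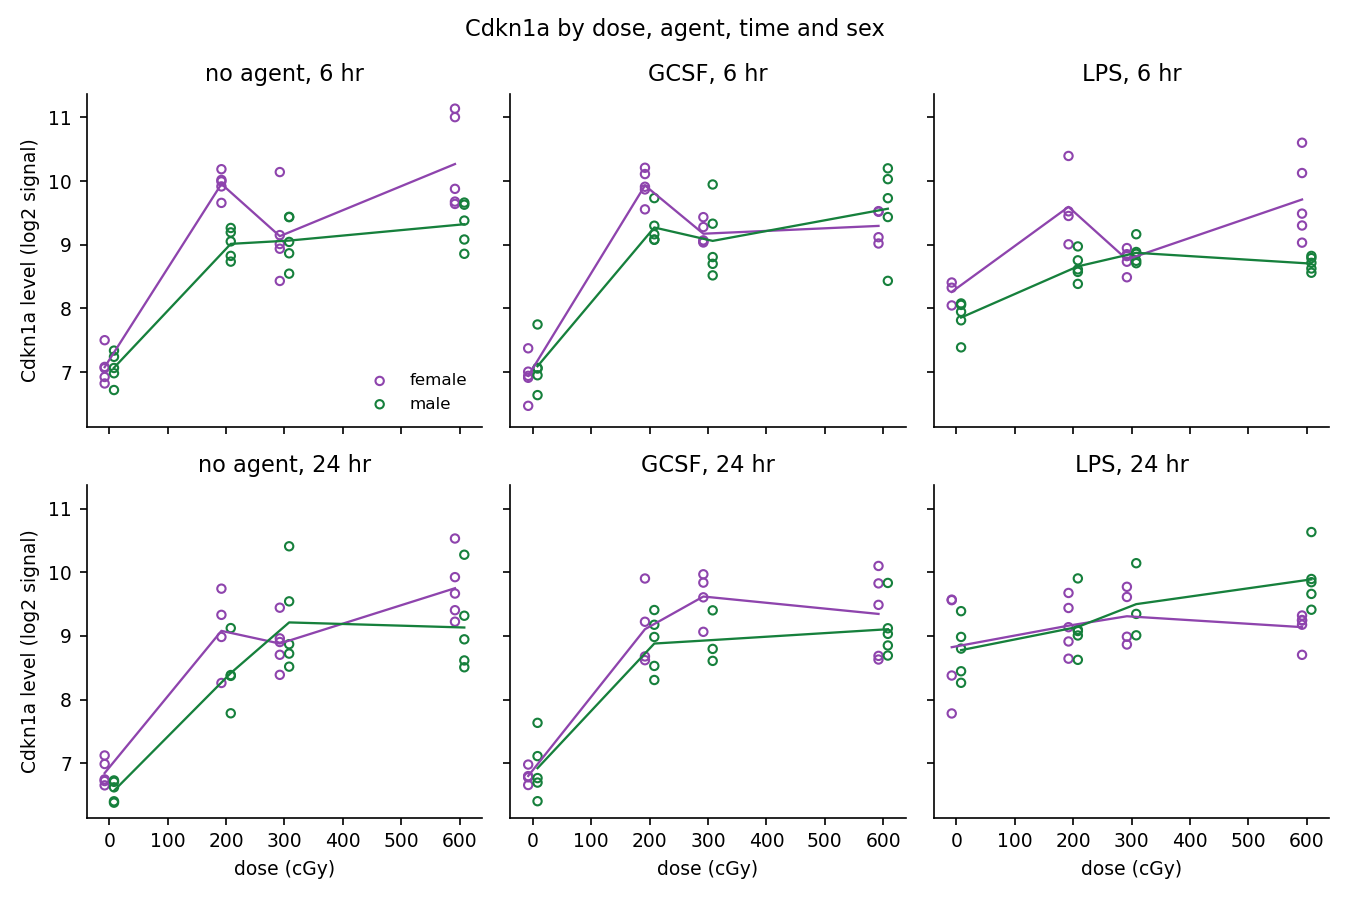
Cdkn1a (log2 signal) against dose (cGy) in the sex and treatment set, for no agent, GCSF and LPS at 6 and 24 hr. Points are mice, coloured and slightly shifted by sex, and lines join the means of each sex (3 to 5 mice). The 0 cGy mice under LPS at 24 hr lie at 7.78 to 9.57, and those without agent at 6.38 to 7.12.

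Other p53 targets moved under LPS in both directions. Of the 34 measured, 10 rose and 8 fell under LPS at 0 cGy at 6 hr, beside 14.8% of all genes higher and 20.5% lower, and 12 rose and 4 fell at 24 hr, beside 9.20% and 12.7%. The median difference was 0.17 at 6 hr and 0.29 at 24 hr, against 0.06 and 0.02 over all genes. Without the second mouse of every group the count of 10 was 6. Fas (1.49 and 1.48), Ckap2, a spindle protein (0.71 and 0.81), and Plk3, a polo-like kinase (0.79 and 0.84), rose at both times. Ddb2 (-0.90 and -1.19) and Rrm2b (-0.95 and -1.06) fell at both.

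Further p53 targets rose under LPS at both times: Psrc1 by 0.64 and 1.205 (adjusted p = 0.0308 and 9.01e-06 by limma), Plk2 by 0.82 and 0.78, and Aen, a nuclease of apoptosis, by 0.42 and 0.41. Sesn2 rose at 24 hr (0.74) and did not pass at 6 hr (0.29, adjusted p = 0.0816 by limma). Phlda3, Mdm2 and Ccng1, named here after their values were seen, had no rise under LPS that passed the test. Phlda3 was at 7.02 ± 0.46 (SD, n = 8) under LPS and 6.77 ± 0.57 (n = 10) without agent at 6 hr, and at 6.90 ± 0.24 (n = 9) and 6.85 ± 0.21 (n = 10) at 24 hr (adjusted p = 0.361 and 0.870 by limma). Mdm2 did not pass at either time (adjusted p = 0.954 and 0.297 by limma). Ccng1 fell at 6 hr, from 8.32 ± 0.26 (n = 10) to 7.60 ± 0.42 (n = 8, adjusted p = 8.71e-04 by limma), and did not pass at 24 hr (0.480).

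Among the 17 other regulators of Cdkn1a, 4 rose and 4 fell under LPS at 6 hr, with 5 risen and 1 fallen at 24 hr, beside 14.8% and 20.5% of all genes at the former and 9.20% and 12.7% at the latter. Cebpb rose by 0.96 and 1.98 at the 2 times, Stat3 by 0.93 at 24 hr and Irf1, an interferon-induced factor, by 0.64 and 0.61. Foxo1 was lower by -1.29 and -1.36, and Klf4 by -2.22 at 6 hr. Of the other CDK inhibitors, Cdkn2b (0.52) and Cdkn2a (0.45) rose at 6 hr and Cdkn2d (0.91) at 24 hr. Genes of the RB and E2F list rose, 12 of 27 at 6 hr and 15 of 27 at 24 hr, with 1 and 0 fallen, where 14.8% and 9.20% of all genes rose. Bub1, a mitotic checkpoint kinase, rose by 0.82 and 1.57.

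Cell markers moved under LPS as well. In unirradiated mice at 24 hr the mean of the 5 B cell markers was 6.85 to 8.65 under LPS and 9.46 to 10.05 without agent, and that of the 6 neutrophil markers was 10.52 to 12.51 against 9.19 to 10.05. Of the neutrophil markers 4 of 6 rose at 6 hr and 6 of 6 at 24 hr, beside 14.8% and 9.20% of all genes. Alb was at 10 or more in 4 of 37 and 6 of 36 mice under LPS at 6 and 24 hr, and in 8 of 40 and 15 of 38 without agent. The part of the cell makeup in the rise of Cdkn1a under LPS was not tested.

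The difference of slope between females and males, taken over the 3 agents, did not pass the test, and the difference under each agent was not tested. Over the 3 agents the slope in males minus that in females was -0.05 (SE 0.04, adjusted p = 0.365 by limma) at 6 hr and 0.02 (SE 0.04, 0.956) at 24 hr, where 22.2% and 0.0161% of genes were called. Without agent the slopes were 0.47 and 0.44 in females and 0.34 and 0.41 in males at 6 and 24 hr. Under GCSF they were 0.32 and 0.39 in females and 0.37 and 0.33 in males. Under LPS they were 0.21 and 0.05 in females and 0.13 and 0.19 in males (SE 0.05 each).

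The small treatment set gave the same comparisons at 6 hr with doses of 150 and 600 cGy. Without agent the 0 cGy mice were at 7.03, 7.09, 7.37, 7.47, 7.47 and, in the mouse labelled 10, 10.47. The 150 cGy mice had a range from 9.38 to 10.12 and the 600 cGy mice from 10.15 to 10.97. Apart from the mouse labelled 10, these 3 groups did not overlap. The slope was 0.42 (SE 0.05, adjusted p = 1.33e-06 by limma, 4.46% of genes rising), and 0.49 without that mouse.

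Under GCSF the 0 cGy mice were at 7.30, 7.53, 7.54, 7.54, 7.65 and 7.99, the 150 cGy mice at 9.39 to 10.17 and the 600 cGy mice at 10.16 to 10.76. The slope was 0.40 (adjusted p = 3.03e-07 by limma, 10.4% of genes rising) and differed from that without agent by -0.01 (SE 0.07, adjusted p = 0.932, 1.67% of genes called), or by -0.08 (adjusted p = 0.2999) without the mouse labelled 10. The difference at 0 cGy was -0.23 (SE 0.30, adjusted p = 0.774 by limma, 0.549% of genes called). Without the mouse labelled 10 it was 0.30 (adjusted p = 0.447), so its sign rests on that mouse.

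Under LPS the 0 cGy mice were at 8.19, 8.33, 8.34, 8.50, 9.02 and 9.36, all above the 5 lower mice without agent. Of the irradiated mice under LPS, 10 of 11 were above the highest of these. The difference at 0 cGy was 0.81 (SE 0.30, adjusted p = 0.0429 by limma, 26.2% of genes called), and 1.34 (adjusted p = 1.28e-07) without the mouse labelled 10. The slope was 0.26 (adjusted p = 1.35e-04 by limma, 6.08% of genes rising). It differed from that without agent by -0.15 (SE 0.07, adjusted p = 0.234, 2.99% of genes called) with all mice, and by -0.22 (adjusted p = 4.35e-04) without the mouse labelled 10. The 0 cGy mice under LPS had Phlda3 at 6.33 to 7.03 and Ccng1 at 7.72 to 8.39, within or below the ranges of the 5 lower mice without agent, and Cd79a at 9.66 to 10.21, below theirs.

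At 168 hr after 150 cGy, in the small 7 day set, an elevation was measured whose size differed between the probe sets. The 3 controls of that time were at 6.67, 6.69 and 7.26, and the 10 irradiated mice at 6.98 (lowest), 7.33 (median) and 7.52 (highest). Of the 10 irradiated mice 7 were above the highest control, and 10 by the other probe set. The means at 0 and 150 cGy were 6.87 and 7.32, and by the other probe set 6.12 and 7.44, a wider gap. By the probe set that stands for the gene the difference was 0.45 (SE 0.14, 1.36-fold, adjusted p = 0.0103 by limma). In this comparison 33.8% of genes were called higher. In the dose-time set 100 and 200 cGy at this time had 0.25 and 0.83, side by side. The call was lost without the first or the third mouse of every group (0.36 and 0.34, adjusted p = 0.102 and 0.115 by limma).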

How the data were processed

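Globin-reduced RNA of mouse blood was hybridised to Affymetrix Mouse 430A arrays. The authors deposited a log2 signal for each probe set, made with RMA in the affy package, per the submitters' processing notes, with no version given. They run from 2.17 to 14.85, with array medians of 5.61 to 5.93. Whether all arrays were normalised together is not given in the sources used here, and the number of arrays limits the precision. Of 22690 probe sets, 64 controls, 1555 without a symbol and 691 with several symbols were left out. The other 20380 stood for 12393 genes, each by its probe set with the highest mean. Repeat scans of 2 mice were averaged with the first.

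Each set had its own model of group means in limma 3.58.1 (R 4.3.3, data.table, version 1.17.8), with Benjamini-Hochberg adjustment over all genes and a threshold of 0.05, after tests on simulated data. A slope is the least-squares slope of group means on dose per 100 cGy. Neighbouring doses were compared by exact two-sided permutation tests (scipy 1.17.1, Python 3.11.15). Numbers and plots used numpy 2.4.6, pandas 2.3.3 and matplotlib 3.10.9. Promoter sequences are those of RefSeq (GRCm38.p6). Each title holds a bracketed code, whose middle part was read as the array run without a label that says so. Between groups, same-numbered mice had deviations from their group means that correlated by 0.02, 0.04, 0.06 and -0.13 on average in the 4 sets, so the numbers were not taken to pair mice.

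The gene, the lists and the alternatives were chosen with earlier results of these data known. The text names Cdkn1a throughout. It names the other CDK inhibitors and Mdm2, Mdm4, Ppm1d, Ccng1, Phlda3, Cdk2, Cdk4, Ccnd1, Ccne1 and Pcna where lists are described. From each list it takes up to 4 members with the smallest p, and by correlation the 10 genes most and the 5 least like Cdkn1a. Zmat3, Bbc3 and, under LPS, Mdm2, Phlda3, Ccng1, Psrc1, Plk2, Aen and Sesn2 were named outside this rule, after their values were seen. The alternatives were other probe sets, normalisations, filters, priors, dose scales and blocks, and leaving out arrays.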

Additional observations from a re-analysis of the deposited data

Results flagged for a closer look

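In 4 of 103 groups of 4 to 10 mice, 1 mouse lay apart from the others by Dixon's criterion, which chance does in about 1 in 20 groups. In the small treatment set, the mouse labelled 10 at 0 cGy without agent had Cdkn1a at 10.47, where the other 5 had 7.03 to 7.47, and a mouse at 600 cGy under LPS had 10.996, where the others had 10.25 to 10.39. In the dose-time set, a mouse at 1050 cGy and 6 hr had 9.99 beside 8.36 to 8.70. In the sex and treatment set, a female at 600 cGy under LPS and 24 hr had 8.70 beside 9.18 to 9.32.

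The slope of Cdkn1a over dose differed between the 6 times (moderated F of 78.6). Under LPS it was lower than without agent, by -0.24 at 6 hr and by -0.31 at 24 hr in the sex and treatment set.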

How the results depend on the processing

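Of 878 alternative values for 55 results, 824 kept the direction and the side of the threshold (for counts, stayed within 1.5 times), and 54 did not. The slopes of the dose-time set stayed positive and past the threshold under every alternative run, between 0.08 and 0.21 at 6 hr, 0.09 and 0.16 at 24 hr, 0.26 and 0.42 at 48 hr, 0.32 and 0.54 at 72 hr, 0.40 and 0.67 at 120 hr and 0.24 and 0.67 at 168 hr. The F over times at 0 cGy was 4.33 with only those groups fitted and 3.00 by the other probe set, past the threshold in both. The difference at 100 cGy and 48 or 72 hr was 0.58 or 0.44 by the other probe set, not past it. At 120 hr it passed with only its groups (0.64), the mean of the probe sets (0.91), the other probe set (1.18), quantile normalisation (0.92), without the arrays of high Alb (0.64) and without the 6 arrays of high B cell marker at 24 hr (0.64), and it ran from 0.53 to 0.74 when 1 mouse per group was left out. The slope under LPS at 24 hr ran from 0.081 to 0.14 in that way and was 0.094 without high Alb. The GCSF difference at 0 cGy and 6 hr ran from -0.14 to 0.013 when 1 mouse per group was left out. In the small treatment set the GCSF difference at 0 cGy was 0.27 with a replicate block, 0.79 without high Alb and 0.30 without the mouse labelled 10. Without high Alb the mouse labelled 4, at 7.99 the highest of its group, was the only 0 cGy mouse left under GCSF. The GCSF slope difference was 0.0026 by the mean of the probe sets and 0.019 by the other probe set, and ran from -0.017 to 0.014 leaving out mice. The LPS difference at 0 cGy there did not pass with only its groups (0.81) or leaving out mice (0.52 to 0.80). The LPS slope difference passed at -0.22 with a replicate block, at -0.22 without high Alb and at -0.22 without the mouse labelled 10. The 150 cGy difference at 168 hr was 0.33 with a replicate block, not past the threshold, and 0.34 to 0.68 leaving out mice. Leaving out that mouse or those 6 arrays and taking array run as a block in the sex and treatment set were chosen after seeing the data. Risen p53 targets at 24 hr were 7 by the mean of the probe sets, 6 after quantile normalisation, 9 after centring, 9 without the 6 arrays of high B cell marker, 7 without high Alb and 2 to 7 leaving out mice, and fallen ones were 4 after quantile normalisation. Without high Alb, 11 rose at 48 hr, 5 fell at 72 hr (5 to 9 leaving out mice), 8 rose at 120 hr and 14 fell at 168 hr. At 120 and 168 hr this left out every mouse at 450 cGy or more, so the 8 and the 14 are counts over 0 cGy and the low doses alone. Neighbouring doses passed in 0 of 42 pairs leaving out mice (smallest exact p 0.0286, with 12 to 15 pairs at that unadjusted p) and in 0 of 25 pairs without high Alb (3 at an unadjusted p under 0.05). Fewer mice raise the smallest p that an exact test can give; for the other results the cause was not tested.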
